A study of Mus musculus with 12 samples.

Results

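The translation initiation factor genes were taken as all protein-coding mouse genes whose symbol starts with Eif, without the Eif2ak kinases and without the X- and Y-linked copies Eif2s3x and Eif2s3y. The rule used names only and no measured value, and it gave 49 of the 50600 genes listed in the count tables. RNA was sequenced from 12 mice in 4 groups of 3, and a level is given here as CPM, the counts scaled to library size after TMM normalization. Ctrl were thymocytes of mice with loxP-flanked Dnmt1 alleles (label genotype DNMT1 fl/fl) and no Cre, 20 to 25 wk old. KO were thymocytes of DNMT1 fl/fl CD4-CRE mice, in which Cd4-Cre deletes the DNA methyltransferase gene Dnmt1 in T cells, 20 to 21 wk old. ALK were T-cell lymphoma cells of NPM-ALK+ mice, 22 to 31 wk old, which carry the human fusion kinase NPM-ALK under the Cd4 enhancer and promoter, and which have no Cre by their label. ALKKO were thymocytes of NPM-ALK+ mice that also had DNMT1 fl/fl and CD4-CRE, 19 to 25 wk old. All mice had a mixed C57Bl/6 and SV/129 background, and all were male except KO2.

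Initiation factors bring the small ribosomal subunit, the initiator methionyl-tRNA and the messenger RNA together and place the ribosome at the start codon. eIF4E binds the cap of the mRNA, the scaffold eIF4G ties it to the helicase eIF4A, and the 4E-binding proteins block that contact. eIF2 carries the initiator tRNA with GTP, eIF2B recharges eIF2 with GTP, and eIF3 is the large complex that holds the parts on the small subunit. Cells that grow or divide fast are known to need a high rate of this step.

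The reads assigned to genes numbered 12473857 to 18864327 per library. Reads on the 49 genes made up 1.14% to 1.22% of them in ALK and 0.830% to 0.964% in the other 9 libraries. The labels were checked on Dnmt1, which lay between 400.0 and 487 CPM in Ctrl, between 204.8 and 244 CPM over KO and ALKKO together and between 379 and 788 CPM in ALK, and on reads assigned to mouse Alk, which lay between 34.9 and 54.99 CPM in the 6 transgenic libraries and at or below 0.431 CPM in the other 6. The log2 fold change of Dnmt1 in KO against Ctrl was -0.95 ± 0.23 (SE, edgeR adjusted p = 0.787). Of the 11 T-cell markers tested, 5 were lower in ALK than in Ctrl and 0 were called higher, and Rag1 was listed at 0 in all libraries. Cd4 was among those lower, with 27.5 to 116 CPM against 1287 to 1409 CPM. Ptcra alone had a positive fold change, 2.07 on the log2 scale and not called, with 424, 142 and 32.5 CPM in ALK against 46.3 to 49.0 CPM in Ctrl. Dntt was not called either, with means of 1867 CPM in ALK and 1910 CPM in Ctrl. The summed T-cell level was 4010.5 to 5279.4 CPM in ALK and 10311.7 to 12333.0 CPM in Ctrl. Of 6 thymic epithelium markers 4 were lower in ALK (sum 7.59 to 157 CPM against 588 to 674 CPM), and of 6 fibroblast and endothelium markers 3 were higher (sum 1139 to 2471 CPM against 271 to 404 CPM). KO2 stood apart from its group with 1835 CPM over 5 B-cell markers against 40.4 and 45.9 CPM in KO1 and KO3, and KO3 held 4150 CPM over 3 heart muscle genes against at most 13.9 CPM in any other library. In bulk RNA, fewer cells of one type and less RNA per cell cannot be told apart, and the part of cell composition in the results that follow was not tested. Alignments to several places made up 48.4% to 51.8% of all listed alignments in ALK and 39.2% to 45.6% in the other libraries, and these are in no gene's count.

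Of the 49 genes, 45 passed the filter on low counts. Eif3j2 and Eif4e1b had at most 4 and 3 counts in any library, and Eif4ebp3 and Eif4e3 were listed at 0 in all 12. Eif4ebp3 shares 67.3% of its exon bases on the same strand with AC115631.1, so its listed 0 does not show that it was not transcribed. For Eif4e3 the overlap, with Gm20696, covers only 14.8% of exon bases, and the cause of its listed 0 was not tested. For Eif3j2, 91.9% of all 50-base stretches also occur in other genes, and for Eif3j1 36.9%.

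Promoter windows (250 bases before to 50 bases after the RefSeq start, GRCm38.p6) were found for 37 of the 49 genes. The E-box CACGTG, the site of MYC and of other basic helix-loop-helix factors, was present in the windows of 10 of the 37 genes (27.0%), against 8.09% of 27025 symbols with a window and 10.997% of the 11812 of them that were tested for expression. The motif reads the same on both strands, and the 10 genes were Eif1b, Eif3a, Eif3f, Eif3k, Eif4a1, Eif4e, Eif4g1, Eif4h, Eif5a and Eif5a2. The stretches around the motif are shown for the 4 of these genes that were higher in ALK than in Ctrl, with the motif in capitals, each 5′ to 3′ on the strand of the gene and free of annotated exons.
Eif4a1, chr11:69672577-69672642, minus strand: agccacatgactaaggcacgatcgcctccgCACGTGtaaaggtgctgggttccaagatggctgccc
Eif4g1, chr16:20672643-20672708, plus strand: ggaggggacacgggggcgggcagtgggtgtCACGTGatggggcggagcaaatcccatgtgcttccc
Eif5a, chr11:69921425-69921490, minus strand: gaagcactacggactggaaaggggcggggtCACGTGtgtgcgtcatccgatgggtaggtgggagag
Eif5a2, chr3:28781130-28781195, plus strand: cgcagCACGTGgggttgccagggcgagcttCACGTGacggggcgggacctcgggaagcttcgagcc
The Eif5a2 stretch holds the motif at a pair of places. Of the 10 genes with the motif, 4 were called higher in ALK than in Ctrl, and of the 27 without it, 14. The ETS-type motif CCGGAAGT, searched on both strands, was found in 7 of the 37 windows (18.9%) against 8.08% of tested symbols. The STAT-type motif TTCCNGGAA was found in that of Eif3c alone (2.70% against 1.52% of tested symbols), and the ATF4-type element TGATGCAAT in none (0.161% of tested symbols). A match to these letters is a description of the window and not a bound site.

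In lymphoma cells 39 of the 45 initiation factor genes had a positive fold change against Ctrl thymocytes, and genes of eIF2, eIF3, eIF4A and eIF5A were among those that passed the test. At an adjusted p under 0.05 (edgeR quasi-likelihood test, Benjamini-Hochberg over 16052 genes), 23 of the 45 genes tested rose in ALK against Ctrl, where 14.8% of all genes tested rose, and 0 fell, where 14.7% of all genes fell. At an unadjusted p under 0.05 the numbers were 27 higher and 1 lower (21.6% and 20.9% of all genes), and DESeq2 called 26 higher and 1 lower (18.3% and 19.8% of all genes). The change was moderate: the median log2 fold change was 0.45, against 0.05 over all genes tested, and only Eif2b3, Eif5a2 and Eif2s2 passed the test with over 2-fold, which 8.41% of all genes did upward. In 27 genes every ALK library lay above every Ctrl library, a separation that 21.3% of all genes showed, and in 1, Eif2b4, every ALK library lay below, which 25.1% of all genes showed. The number of called genes changed when single libraries were left out, to 10 without Ctrl1, 16 without Ctrl2 and 14 without Ctrl3. It was 24 without KO2 and 19 without KO3, and 19, 19 and 18 without ALKKO1, ALKKO2 and ALKKO3. Fits with fewer mice have less power for every gene, and the share of all genes called in them is not given here or below. Whether these shifts are particular to the initiation factor genes was not tested. Of the 23 calls, 10 were kept in all 20 alternative analyses, and the least stable were those of Eif3m, Eif2b1, Eif4g1 and Eif3g, kept in 5, 6, 7 and 9 of the 20.

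**Figure D1:**
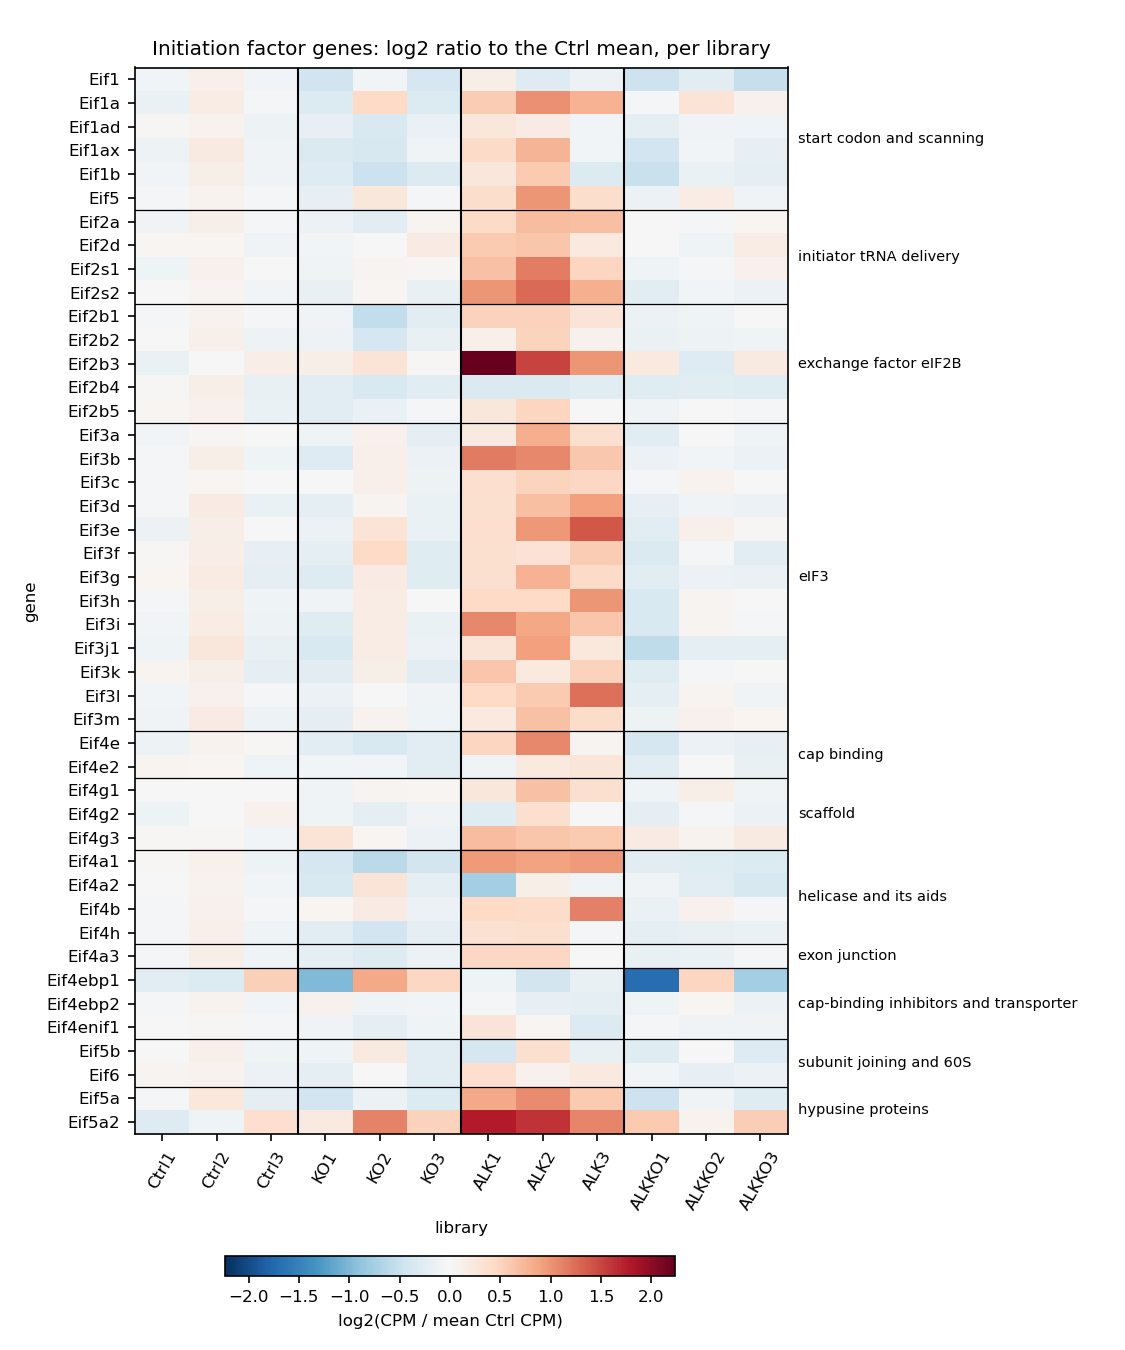
Log2 ratio of each library's CPM to the mean CPM of the 3 Ctrl libraries (colour) for the 45 initiation factor genes that passed the filter (rows, ordered by role) in the 12 libraries (columns). The ALK columns are mostly red, with medians over the genes of 0.38, 0.58 and 0.36, whereas the medians of the other libraries lie between -0.20 and 0.10.

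All 4 members in the role of initiator tRNA delivery rose in ALK. These do not include the gamma subunit of eIF2, because the naming rule left out its gene Eif2s3x. That gene was tested with the partner genes described below and was not called in ALK against Ctrl. Its mean was 16.7 CPM in ALK and 12.02 CPM in Ctrl, and KO2 reached 19.2 CPM. Eif2s1, which encodes the alpha subunit of eIF2 that stress kinases phosphorylate, lay at 73.2, 83.6 and 78.3 CPM in Ctrl and at 123, 174 and 109 CPM in ALK, with 74.3, 81.3 and 79.6 CPM in KO and 73.0, 76.3 and 83.6 CPM in ALKKO. The ALK values were above all 9 others, and the log2 fold change against Ctrl was 0.79 ± 0.16 (SE, edgeR adjusted p = 0.00602). Eif2s2, the beta subunit, had 44.1, 46.6 and 42.8 CPM in Ctrl, 39.6, 45.7 and 39.5 CPM in KO, 88.4, 107 and 76.7 CPM in ALK, next to 37.8, 42.5 and 40.7 CPM in ALKKO. No tumor overlapped a thymus library, with means of 90.8 ± 15.4 CPM in ALK and 44.5 ± 1.92 CPM in Ctrl (SD, n = 3) and a log2 fold change of 1.03 ± 0.14 (edgeR adjusted p = 0.000953). The remaining members of this role, Eif2a and Eif2d, which encode factors that can place initiator tRNA without eIF2, had log2 fold changes of 0.60 and 0.49.

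The 5 genes of the exchange factor eIF2B did not move together. Eif2b3, the gamma subunit of its catalytic part, showed the highest fold of all 45 genes, with 10.7, 11.6 and 13.1 CPM in Ctrl, 12.9, 14.5 and 11.999 CPM in KO, 55.4, 33.6 and 23.4 CPM in ALK, next to 13.7, 9.69 and 13.5 CPM in ALKKO. The 3 tumors differed among themselves by more than 2-fold, yet all lay above every thymus library, and the log2 fold change against Ctrl was 1.67 ± 0.30 (edgeR adjusted p = 0.00332). Eif2b1, the alpha subunit of its regulatory part, also rose, by a log2 fold change of 0.44 (edgeR adjusted p = 0.0388), a call that held in 6 of the 20 alternatives (adjusted p up to 0.140). Eif2b5, the catalytic epsilon subunit, had 0.26 (edgeR adjusted p = 0.168) and Eif2b2, the beta subunit, 0.25 (edgeR adjusted p = 0.184). Eif2b4, the delta subunit, lay between 50.7 and 53.9 CPM in ALK and between 56.4 and 69.4 CPM in Ctrl. Its log2 fold change of -0.29 ± 0.11 did not pass the test (edgeR adjusted p = 0.0673).

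Of the 13 eIF3 genes tested, 9 rose in ALK against Ctrl, where 14.8% of all genes tested rose. In 12 the ALK libraries lay above all Ctrl libraries, which 21.3% of all genes showed. The log2 fold changes of the 13 genes reached from 0.41 to 0.97 with a median of 0.53. Eif3b, a core subunit on which the complex is built, had 215, 242 and 207 CPM in Ctrl, 180.3, 238 and 201 CPM in KO, 495, 465 and 334 CPM in ALK, next to 202, 212 and 203 CPM in ALKKO, and its log2 fold change was 0.96 ± 0.16 (edgeR adjusted p = 0.00257). Eif3e, the site of mouse mammary tumor virus insertions known as Int6, had 135, 161 and 148 CPM in Ctrl, 135, 182 and 134 CPM in KO, 192, 290.5 and 387.02 CPM in ALK, next to 124, 160.1 and 151 CPM in ALKKO. For Eif3e the tumors spread over a 2-fold range with the lowest only just above the thymus libraries, and the log2 fold change of 0.97 ± 0.24 passed the test (edgeR adjusted p = 0.0126). The other called subunits were Eif3c, Eif3d, Eif3g, Eif3h, Eif3i, Eif3l and Eif3m, and those not called were Eif3a, Eif3f, Eif3k and Eif3j1, with adjusted p-values from 0.0513 to 0.174. Eif3g lies 8585 bases from Dnmt1 on chromosome 9, on the same strand, and ranged from 86.6 to 120.1 CPM over KO and from 91.8 to 119.9 CPM over Ctrl.

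Within the cap-binding complex, the helicase gene Eif4a1 and the scaffolds Eif4g1 and Eif4g3 rose, while the cap-binding gene Eif4e did not pass the test. Eif4a1 lay at 131, 137 and 119.6 CPM in Ctrl, 99.1, 84.6 and 97.2 CPM in KO, 248, 239 and 248 CPM in ALK, next to 110.1, 107 and 105 CPM in ALKKO. The 3 tumors were closely alike, at 245 ± 5.23 CPM against 129 ± 8.92 CPM in Ctrl (SD, n = 3), and the log2 fold change was 0.92 ± 0.10 (edgeR adjusted p = 0.000432). Of the 50-base stretches of Eif4a1, 28.4% also occur in other genes, so that its reads were counted in part. Eif4a2, which encodes the closely related second helicase, had 316, 333 and 303 CPM in Ctrl, 249, 389.4 and 275 CPM in KO, 188, 347 and 302 CPM in ALK, next to 299, 266 and 248 CPM in ALKKO. The groups overlapped for Eif4a2, and its log2 fold change of -0.19 had a 95% interval from -0.63 to 0.26.

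The log2 ratio of Eif4a1 to Eif4a2 counts was -1.27, -1.28 and -1.34 in Ctrl, -1.33, -2.20 and -1.497 in KO, 0.40, -0.53 and -0.28 in ALK and -1.44, -1.32 and -1.24 in ALKKO. All 3 tumors lay above the 9 thymus libraries, and ALK1 was the only library in which Eif4a1 had more counts than Eif4a2. The mean ratio was 1.16 higher in ALK than in Ctrl on the log2 scale (exact permutation test, two-sided p = 0.1, the smallest that 3 against 3 allows). It was 0.89 higher without ALK1, and ALKKO and Ctrl differed by -0.04 (exact permutation test, p = 0.7). This pair of genes was chosen with earlier results of these data known, so the test of the ratio gives no independent support.

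**Figure D2:**
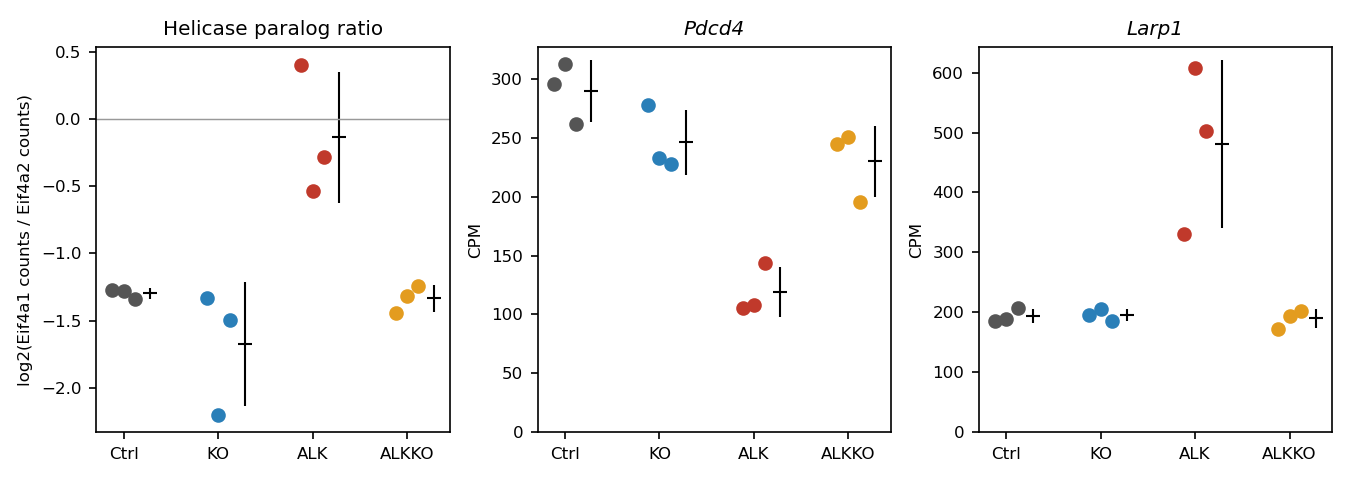
Log2 ratio of Eif4a1 to Eif4a2 counts (left) and CPM of Pdcd4 and Larp1 (middle and right) per library, with 1 point per mouse and a bar for the group mean and SD (n = 3). The ratio in the tumors lies between -0.53 and 0.40 and in the thymus libraries at or below -1.24, Pdcd4 is lowest and Larp1 highest in ALK.

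Eif4e had 64.8, 74.1 and 71.3 CPM in Ctrl, 58.9, 54.9 and 58.9 CPM in KO, 97.8, 147 and 72.6 CPM in ALK, next to 53.7, 63.9 and 61.4 CPM in ALKKO. One tumor, ALK3, lay within the Ctrl range, and the log2 fold change of 0.60 ± 0.21 missed the threshold against Ctrl (edgeR adjusted p = 0.0563) but not against ALKKO (0.83 ± 0.21, edgeR adjusted p = 0.0165). Without ALK2 the value against Ctrl was 0.26 (edgeR adjusted p = 0.227), and without ALK3 it was 0.79 (edgeR adjusted p = 0.00756). Eif4g1, the main scaffold, had 516, 524 and 517 CPM in Ctrl, 492, 543 and 532 CPM in KO, 619.7, 819 and 661 CPM in ALK, next to 486, 568 and 490.1 CPM in ALKKO. Against Ctrl the log2 fold change was 0.43 ± 0.14 (edgeR adjusted p = 0.0368), a call that held in 7 of the 20 alternatives, with a log2 fold change of 0.28 without ALK2 (edgeR adjusted p = 0.133). Eif4a1 and Eif4g3 were called in all 20. The second scaffold gene, Eif4g3, rose by 0.63 (edgeR adjusted p = 0.00455), whereas Eif4g2, which encodes a scaffold without the cap-binding contact, had 0.05. The helicase cofactor Eif4b rose by 0.70 (edgeR adjusted p = 0.022), and Eif4h, its relative, had 0.24.

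Of the 3 genes tested among inhibitors and the transporter of eIF4E, 0 were called in ALK against Ctrl, with 0 at an unadjusted p under 0.05 and 0 in DESeq2. Over all genes tested, 14.8% were called higher and 14.7% lower, so 0 of 3 does not set this role apart. The shares were 21.6% and 20.9% at the unadjusted p, and 18.3% and 19.8% in DESeq2. Eif4ebp2, whose level per kb of exon in Ctrl was 80.2 CPM against 9.70 CPM for Eif4ebp1, had 457, 491 and 444 CPM in Ctrl, 493, 441 and 447 CPM in KO, 455, 411 and 398 CPM in ALK, next to 435, 477 and 422 CPM in ALKKO. The fitted log2 fold change of -0.14 had a 95% interval from -0.37 to 0.09. Eif4ebp1 varied widely inside every thymus group, with 17.5, 16.7 and 29.7 CPM in Ctrl, 10.4, 37.2 and 28.4 CPM in KO, 19.3, 15.5 and 18.4 CPM in ALK, next to 6.30, 28.8 and 12.1 CPM in ALKKO. For this gene the 95% interval of the log2 fold change in ALK against Ctrl reached from -1.35 to 0.82. Eif4enif1, which carries eIF4E into the nucleus, had a log2 fold change of 0.03.

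The hypusine proteins were among the genes with the highest folds. Eif5a, whose product helps ribosomes over difficult stretches of the message after hypusine modification, had 389.1, 472 and 347 CPM in Ctrl, 297, 366 and 322 CPM in KO, 722, 834 and 601 CPM in ALK, next to 289.9, 380.5 and 332 CPM in ALKKO. Tumors were above all thymus libraries, with a log2 fold change against Ctrl of 0.84 ± 0.18 (edgeR adjusted p = 0.00651). Eif5a2, a paralog known as an amplified gene of human cancers, had 7.45, 8.52 and 11.8 CPM in Ctrl, 10.4, 19.5 and 12.9 CPM in KO, 31.0, 27.8 and 19.2 CPM in ALK, next to 13.6, 9.63 and 13.3 CPM in ALKKO. The log2 fold change from Ctrl was 1.49 ± 0.31 (edgeR adjusted p = 0.00651), and the lowest tumor was just under KO2. Per kb of exon, Eif5a2 stayed far below Eif5a also in ALK, at 5.18 against 303 CPM per kb.

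Among the 6 genes grouped here under scanning and start codon choice, Eif1a and Eif5 rose, by log2 fold changes of 0.80 (edgeR adjusted p = 0.0207) and 0.62 (edgeR adjusted p = 0.0294). Eif1, Eif1b, Eif1ax and Eif1ad had values from -0.09 to 0.41 that did not pass. The placing of Eif1ad in this group does not show that it acts in scanning. Eif6, which keeps the large subunit from joining early and is needed for its maturation, had 94.3, 95.03 and 82.5 CPM in Ctrl, 78.2, 89.5 and 75.6 CPM in KO, 117.6, 96.7 and 105 CPM in ALK, next to 86.6, 79.8 and 82.2 CPM in ALKKO. Every ALK value of Eif6 was above Ctrl by a small margin, and the log2 fold change of 0.23 ± 0.12 did not pass the test (edgeR adjusted p = 0.160). Eif5b, the GTPase of subunit joining, had -0.03, and Eif4a3, a helicase relative of the exon junction complex, had 0.32 (edgeR adjusted p = 0.0995).

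**Figure D3:**
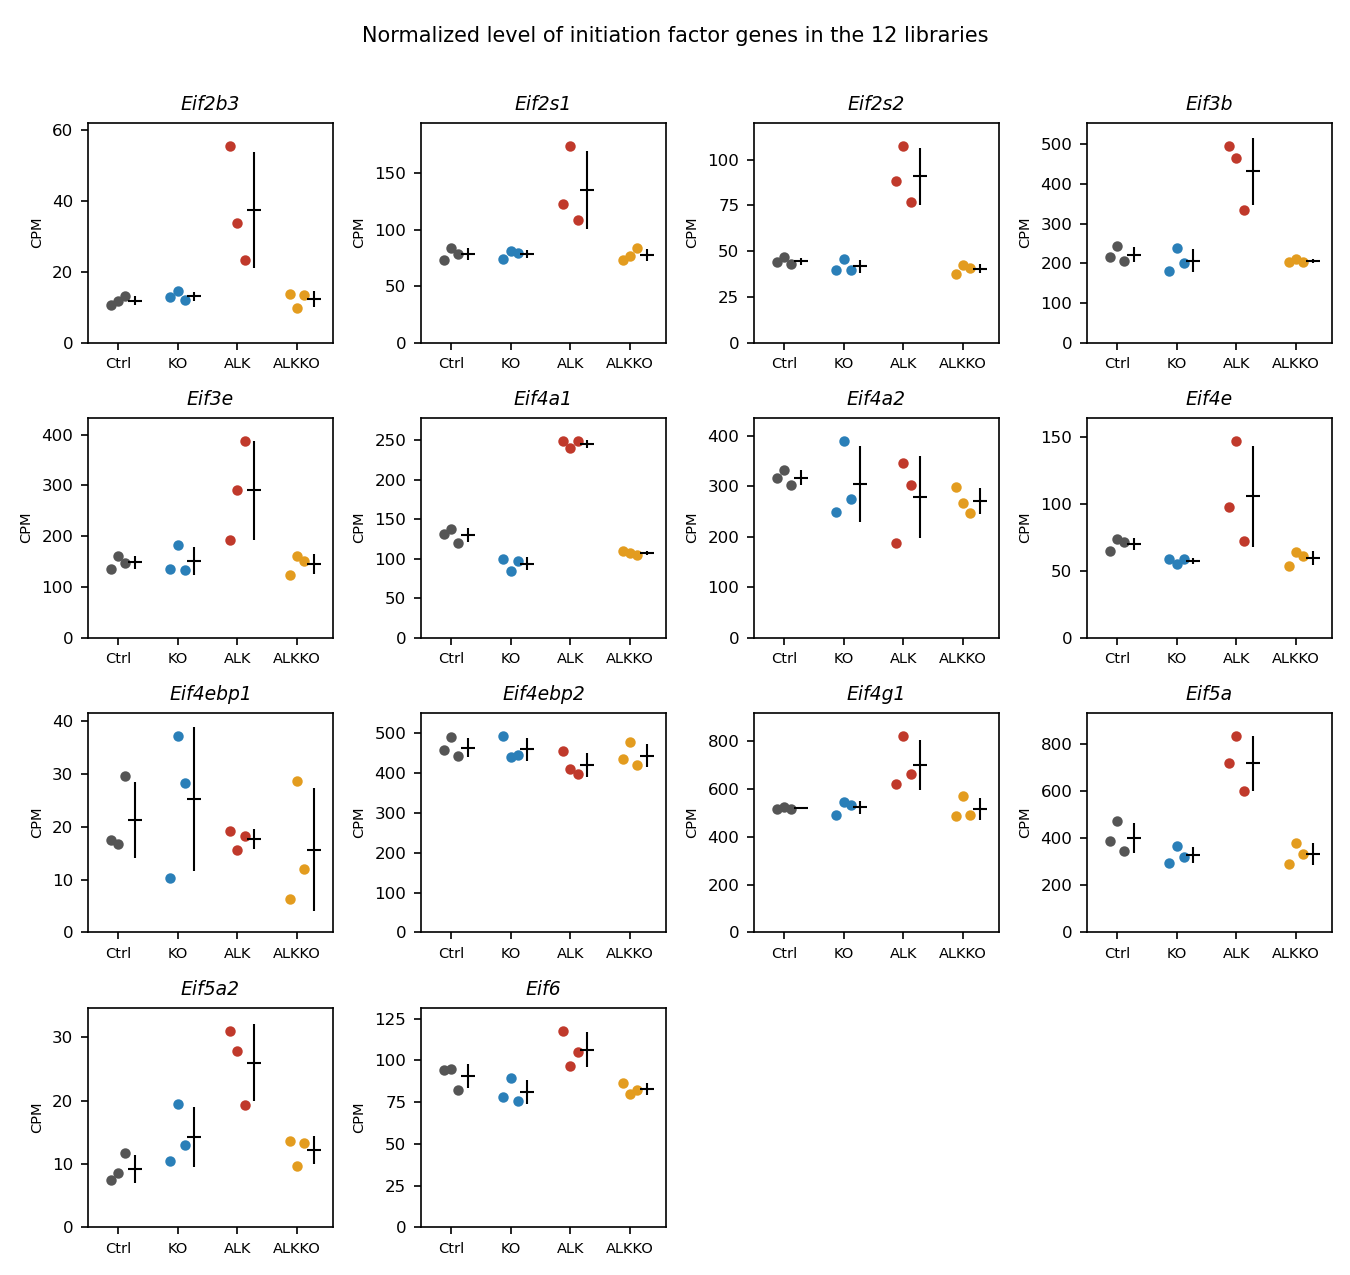
CPM of 14 initiation factor genes (1 panel each, axis from 0) in the 3 mice of each group, with points for mice and bars for the mean and SD (n = 3). Eif4a1 in ALK lies between 239 and 248 CPM with no overlap with other groups, whereas Eif4a2, Eif4ebp1 and Eif4ebp2 overlap between groups.

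Initiation factor genes were also higher in ALK than in ALKKO. Against ALKKO, which carried the same transgene but were thymocytes and not tumor cells, 31 of the 45 genes were higher in ALK, where 13.4% of all genes were higher, and 0 were lower, where 14.7% of all genes were lower. The unadjusted test gave 34 higher and 0 lower (20.5% and 20.9% of all genes), and DESeq2 called 33 and 0 (17% and 19.5% of all genes). Over 2-fold were 7 genes (Eif2b3, Eif2s2, Eif3b, Eif3e, Eif4a1, Eif5a and Eif5a2), against 7.03% of all genes upward, and the groups did not overlap in 35, against 19.5% of all genes. The eIF3 genes gave 12 of 13, with Eif3m missing the threshold (edgeR adjusted p = 0.0535). The 4 members of initiator tRNA delivery and the hypusine genes all passed. This count also changed when single libraries were left out. It was 19 without ALK2 and 13, 17 and 13 without ALKKO1, ALKKO2 and ALKKO3, and it was 31 without KO2 and 26 without KO3. ALK and ALKKO differ in tumor state and in Dnmt1 status at the same time, so these cannot be told apart, and this comparison shares its ALK libraries with the one against Ctrl.

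No initiation factor gene passed the test in thymocytes with Cd4-Cre. The same test did not call Dnmt1 itself in KO against Ctrl, as given above, so the lack of a call does not show an unchanged level. KO against Ctrl gave 0 of 45 genes (0.0187% of all genes tested, either direction), with 0 higher and 3 lower at an unadjusted p under 0.05 (4.02% and 1.5% of all genes) and 0 higher and 1 lower by DESeq2 (0.237% and 0.0685%). ALKKO against Ctrl also gave 0 (0.187% of all genes), with 0 higher and 3 lower unadjusted (2.21% and 0.966%) and 0 in DESeq2 (0.604% higher and 0.106% lower). Between ALKKO and KO 0 genes were called (0.00623% of all genes), with 0 at an unadjusted p under 0.05 (0.941% higher and 1.75% lower) and 0 in DESeq2 (0.131% and 0.0249%). The gene nearest to a call in KO was Eif4a1, at 93.7 ± 7.86 CPM against 129 ± 8.92 CPM (SD, n = 3), with a log2 fold change of -0.46 ± 0.10 (edgeR adjusted p = 0.567, unadjusted p = 0.000988), and all KO libraries lay below all Ctrl libraries. In ALKKO, Eif4a1 had -0.27 ± 0.10 against Ctrl (edgeR adjusted p = 0.9998). The highest fitted value in KO was that of Eif5a2, 0.63 ± 0.31 (edgeR adjusted p = 0.864), where KO2, the library with B-cell RNA, was the highest. In KO 10 of the 45 genes lay wholly below Ctrl, where 6.24% of all genes tested did, and in ALKKO 10, where 7.56% did, and both counts share the Ctrl libraries.

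**Figure D4:**
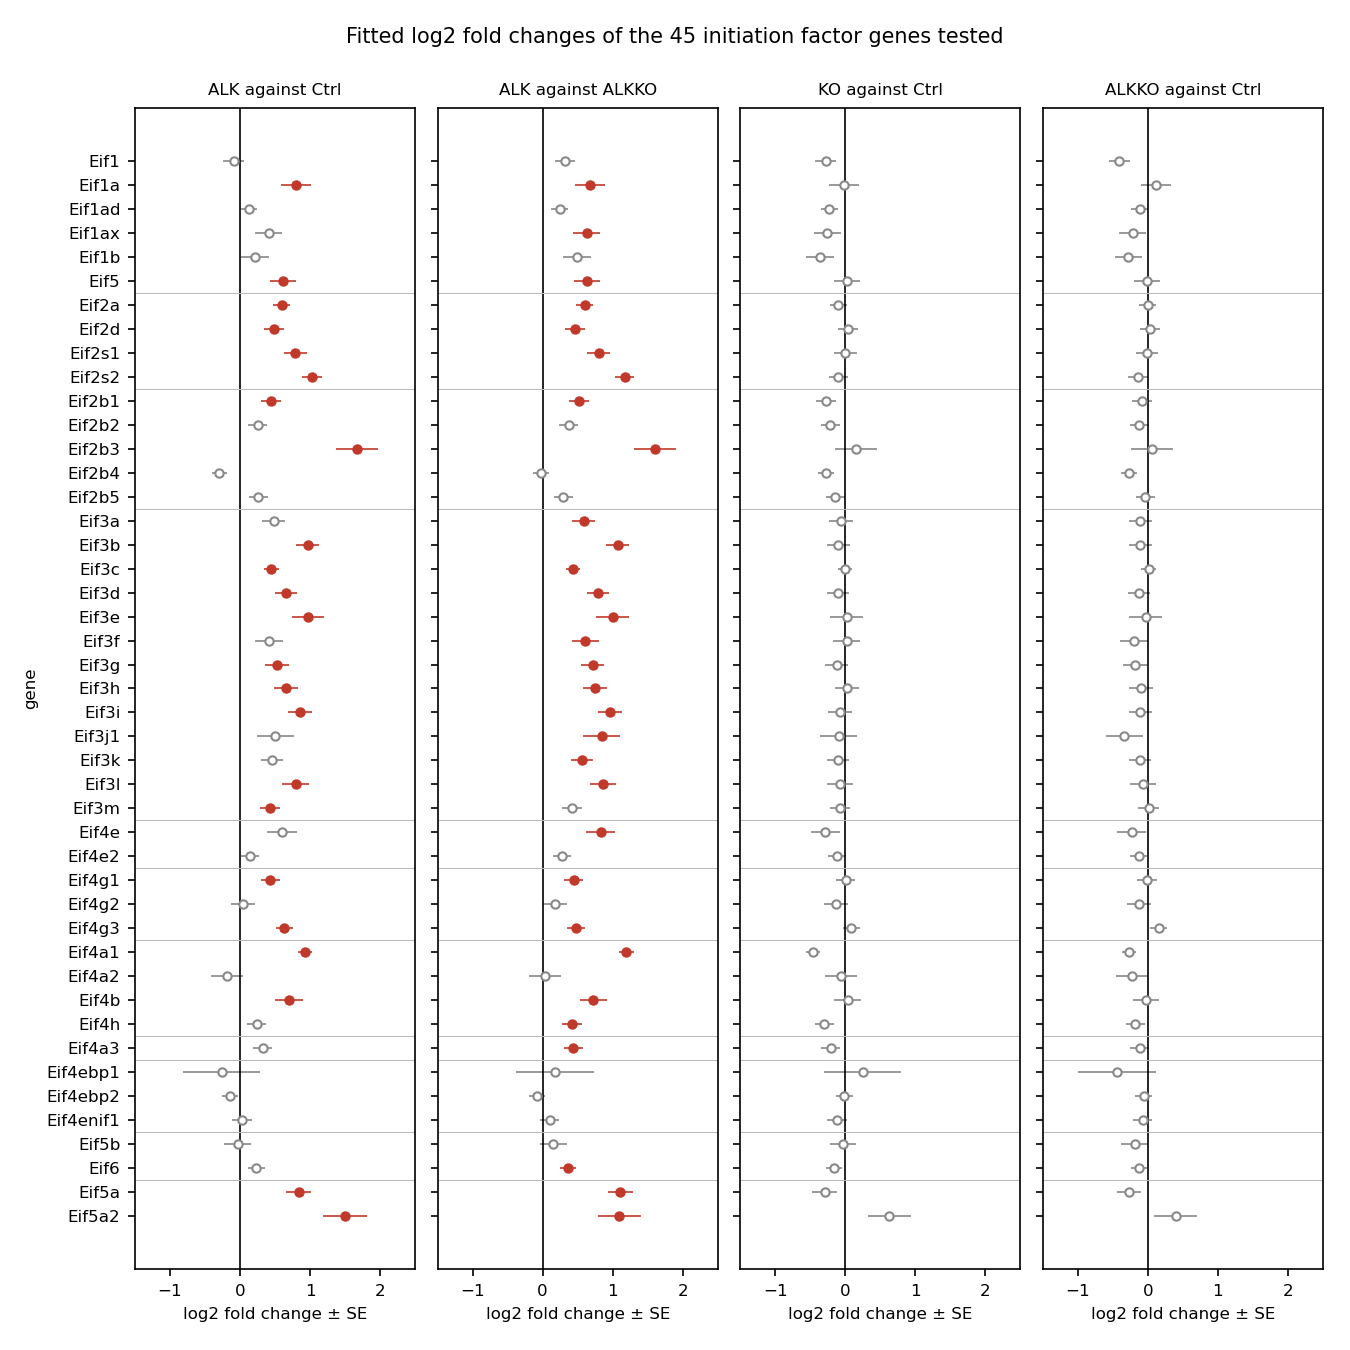
Fitted log2 fold change and SE (horizontal axis) of the 45 genes tested (rows, in the order of roles used above) in 4 comparisons, with filled red points for an adjusted p under 0.05. ALK against Ctrl holds 23 filled points and ALK against ALKKO 31, all to the right of 0, and KO and ALKKO against Ctrl hold none.

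The step from Ctrl to ALK was also set against the step from KO to ALKKO, a difference of differences that was positive and called for 6 genes (4.29% of all genes tested), Eif2b3, Eif2s2, Eif3b, Eif3i, Eif4a1 and Eif5a2. An unadjusted p under 0.05 was reached by 22 genes, all positive (14.1% of all genes were positive and 13.6% negative), and DESeq2 called 16 positive (9.12% positive and 10.7% negative over all genes). The median over the 45 genes was 0.50 on the log2 scale. Since the ALK libraries were tumors and the ALKKO libraries were not, the role of Dnmt1 and that of tumor state cannot be told apart here. The number was 1 without Ctrl1 or ALKKO3, and 11 without ALK1.

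The 3 tumors did not share one profile. ALK2 had the highest level of the tumors in 23 of the 45 genes, ALK1 in 13 and ALK3 in 9, whereas over all genes tested these shares were 27.5%, 36.9% and 35.6%. ALK3 was the highest in Eif3d, Eif3e, Eif3f, Eif3h and Eif3l and in Eif4b, with Eif3l at 466 CPM against 269 in ALK1 and 297 in ALK2, and Eif4b at 1180.4 CPM against 743 and 726. All of these except Eif3f, which is on chromosome 7, lie on chromosome 15, and no other member lies on chromosome 15. The part of this shared chromosome in the levels of ALK3 was not tested. ALK1 was the highest in Eif2b3, Eif3b, Eif3i and Eif5a2. Of these, Eif2b3 and Eif3i lie on chromosome 4, Eif3b on chromosome 5 and Eif5a2 on chromosome 3. The only other member on chromosome 4, Eif4g3, was also highest in ALK1, at 308 CPM against 294 and 287. The part of chromosome position in the levels of ALK1 was not tested. ALK3 had the lowest level of the proliferation gene Mki67 among the tumors, 590.1 CPM against 1577 and 1380.3, and came from the oldest mouse (31 wk). It also had the highest summed levels among the tumors of thymic epithelium markers (157 CPM against 7.59 and 68.8), of macrophage and granulocyte markers (792 CPM against 308 and 203) and of erythroid markers (602 CPM against 160.2 and 22.3). Fibroblast and endothelium markers went the other way, lowest in ALK3 (1139 CPM against 2471 in ALK1 and 1549 in ALK2). The T-cell sum was also lowest there (4010 CPM against 4205 and 5279), and the B-cell sum highest (8.76 CPM against 3.29 and 2.27). The part of these marker levels in the profile of ALK3 was not tested.

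Other genes of translation control were looked at as lists. Of 28 partners and regulators of initiation, 6 rose and 2 fell in ALK against Ctrl, against 14.8% and 14.7% of all genes, with a median log2 fold change of 0.16. Those that rose were Larp1 (1.30), which binds messages of ribosomal proteins, Paip2b (1.07), an inhibitor of poly(A)-binding protein, Pabpc1 (1.06), that protein itself, Eif2ak4 (0.99), the amino acid sensor kinase GCN2, Denr (0.96), a factor of reinitiation, and Dhx29 (0.55), a scanning helicase. Pdcd4, which encodes an inhibitor of eIF4A, fell by 1.28 on the log2 scale (edgeR adjusted p = 0.000688), from 296, 312.4 and 261 CPM in Ctrl to 106, 108 and 144 CPM in ALK. The eIF4E kinase gene Mknk1 fell by 0.48. Larp1 lay at 186, 189.9 and 207 CPM in Ctrl and at 330.4, 608 and 503 CPM in ALK. Pdcd4 in KO ranged from 227 to 277 CPM and in ALKKO from 195 to 250.2 CPM.

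A list of 9 genes grouped under elongation and release, not all of which encode such factors, had 6 calls in ALK against Ctrl, all higher. Of all genes 14.8% rose, and the median log2 fold change of the list was 0.81. Those called were Eef1e1 (1.10), Eef1b2 (0.93), Eef1d (0.87), Eef2k (0.86), Eef2 (0.81) and Eef1g (0.81), of which Eef1b2, Eef1d and Eef1g encode subunits of elongation factor 1 and Eef2k the kinase that inhibits eEF2. Eef1a1 had 0.75 (edgeR adjusted p = 0.0505), and the release factor genes Etf1 and Gspt1 had 0.32 and 0.44 (edgeR adjusted p = 0.164 and 0.0573). Of 10 proliferation genes, 2 rose (Mcm6 by 0.95 and Mcm3 by 0.65), against 14.8% of all genes, and the median of the list was 0.55. The summed proliferation level was 5525 and 5205 CPM in ALK1 and ALK2 but 2589 CPM in ALK3, below the 2863 to 3593 CPM of Ctrl. The difference between these lists and the initiation factor genes was not tested.

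Compared per length, the initiation factor genes differed widely in level. In Ctrl the highest were Eif5a with 169, Eif4g2 with 153, Eif3h with 150.1 and Eif4b with 122 CPM per kb of exon (means of 3 mice), and the lowest of the 45 were Eif2b3 with 1.81 and Eif5a2 with 1.84. In ALK the order at the top was Eif5a with 303, Eif3h with 236, Eif4b with 198 and Eif4g2 with 158. The levels of Eif4g2 overlapped between groups, at 1447, 1574 and 1657 CPM in Ctrl and 1296, 1995 and 1539 CPM in ALK. Values per kb depend on the annotated exon length, and neighbours such as Eif4g2 and Eif3h in Ctrl were not tested against each other.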

How the data were processed

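The authors made stranded poly(A) libraries, sequenced single-end 50-nt reads, trimmed them with Trim Galore, aligned them with STAR to mm10 and deposited the raw count of reads per gene from HTSeq; reads that fit several places or genes are in no count. Versions other than Picard 2.19.2 (from the submitters' processing notes), the annotation release and the strand setting are not given in the sources used here, so overlapping and antisense genes are uncertain. Of 50600 gene IDs, 50376 matched GENCODE M21 on GRCm38. The members, role groups, gene lists and the ratio of Eif4a1 to Eif4a2 were chosen with earlier results of these data known.

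The test was that of edgeR 4.0.16, run in R 4.3.3 (TMM, filterByExpr, 1 term per group over all 12 libraries, robust quasi-likelihood test, Benjamini-Hochberg over 16052 genes). Calls needed an adjusted p under 0.05. Standard errors came from the F statistic, and 95% intervals are 1.96 SE. Values per library are given for members over 2-fold and called in any comparison, for the 3 highest and lowest called members of each comparison, and for Eif4e, Eif4a1, Eif4a2, Eif4g1, Eif4ebp1, Eif4ebp2, Eif2s1, Eif5a and Eif6. Other members and partner genes with values were chosen after these were seen. Counting noise alone is small at these depths (3 counts equal 0.159 to 0.241 CPM); such floors cover counting error only. Alternatives were the Wald test of DESeq2 1.42.0, its size factors in edgeR, a block for replicate number, no filter or 10 counts as the minimum in every library, covariates for sex or age, fits of only the groups compared, and fits without each library in turn. The tests were first run on simulated counts.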

Additional observations from a re-analysis of the deposited data

Results flagged for a closer look

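For 6 genes the step from Ctrl to ALK and the step from KO to ALKKO differed by a test of the difference itself (edgeR quasi-likelihood test, adjusted over 16052 genes, n = 3 per group). On the log2 scale the difference was 1.7575 for Eif2b3 (edgeR adjusted p = 0.0287) and 1.7238 for Eif5a2 (edgeR adjusted p = 0.0348). It was 1.0732 for Eif2s2, 0.9699 for Eif3b, 0.8855 for Eif3i and 0.7292 for Eif4a1. All 6 were positive, because the 3 ALK libraries were high and the 3 ALKKO libraries were near KO. The lymphoma and thymus origin of the libraries cannot be told apart from Dnmt1 status in this difference. For these flags, groups of 3 mice were not searched for single outlying samples. The marker levels of KO2 and KO3 are given above, and fits without each library below.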

How the results depend on the processing

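The number of initiation factor genes higher in ALK than in Ctrl (23) was 14 with only the groups compared, and 10 to 25 with single libraries left out, lowest without Ctrl1 and 14 without Ctrl3. The number lower (0) was 1 (Eif2b4) with DESeq2, with DESeq2 size factors, with at least 10 counts in every library and without KO2, a range of 0 to 1. Of the 23 called genes, 10 were called in all 20 alternatives. Higher in ALK than in ALKKO (31) were 20 genes with no filter, 19 with at least 10 counts, 11 with only the groups compared and 13 to 31 with single libraries left out. The difference of differences (6 genes) was 16 with DESeq2, 1 with no filter and 1 to 11 with libraries left out: 11 without ALK1, 3 without ALK2 or Ctrl3, 2 without ALKKO1, ALKKO2, Ctrl2 or KO3, and 1 without ALKKO3 or Ctrl1. In KO against Ctrl, DESeq2 called 1 gene lower. The cause of these shifts was not tested. Eif4a2, never called, ranged from -0.398 to 0.0335 (without ALK1) with libraries left out, and Eif4ebp1, never called, from -0.434 to 0.0573 (without Ctrl3). The median log2 fold change in ALK against Ctrl stayed between 0.367 and 0.523.

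Replicate numbers did not pair the samples: of 18 same-number pairs 5 had a correlation of deviations over 0.1, and 6 correlated best with their own number. With the replicate number as a block, 23 genes were higher in ALK than in Ctrl, 28 higher than in ALKKO and 5 in the difference of differences.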
